A study of Mus musculus with 48 samples.

Results

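The heat shock and cold responses were followed through 10 genes in mouse liver after exposure to perfluorooctanesulfonate (PFOS), a persistent fluorinated surfactant. The 10 genes, of 40847 in the count tables, were Hspa1a, Hspa1b, Hspa8, Hsph1, Dnajb1, Hsp90aa1, Hspd1, Hspe1, Cirbp and Rbm3. They were chosen by symbol, with their values in every one of these livers at all 3 doses already in view, so every difference of theirs between doses, genotypes or sexes is given as a description and supports nothing as a test. Called is used of them only as a label for an adjusted p under 0.05. All 10 passed the filter on low counts in both sexes.

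The livers came from 48 mice in 12 groups of 4, defined by sex, genotype and dose. Daily PFOS doses were 0 (vehicle, 0-PFOS), 1 (1-PFOS) and 10 mg per kg of body weight (10-PFOS), given by oral gavage for 21 days to mice starting at 10 to 12 weeks of age on a normal diet. The hCYP2B6-Tg mice carry a human CYP2B6/2A13/2F1 transgene on the Cyp2b-null background, and the Cyp2b-null mice, on C57Bl/6J, lack Cyp2b9, Cyp2b10 and Cyp2b13 through a Crispr/Cas9 deletion. Both genotypes therefore lack these 3 genes, no wild-type liver was included, and the sources used here do not name the promoter that drives the transgene. Each library is whole liver, in which fewer cells of a type and less RNA per cell cannot be told apart. The labels do not say whether the 4 mice of a group shared a cage or a day. The p-values judge group differences against the spread between these mice. A cage or day shared by a group could not be told apart from its sex, genotype or dose.

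Heat shock proteins are chaperones that hold and refold other proteins, and many of their genes are switched on by heat shock factor 1 (Hsf1) when unfolded proteins accumulate. Hspa1a and Hspa1b encode the inducible cytosolic HSP70, Hspa8 the constitutive HSP70, and Hsp90aa1 the inducible HSP90 alpha. Dnajb1 (an HSP40) delivers substrates to HSP70, and Hsph1 (HSP110) exchanges its nucleotide. Hspd1 (HSP60) and Hspe1 (HSP10) form the folding chamber of the mitochondrial matrix. Cirbp and Rbm3 encode small RNA-binding proteins that are induced by mild cold and are lowered at fever temperatures. In liver several of these transcripts, Cirbp and Rbm3 among them, follow daily body temperature.

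Promoter sequences were taken from RefSeq on GRCm38.p6, each from 250 bases before to 50 bases after an annotated start. Of the 10 genes, 7 had an entry, and Hspa8, Hsp90aa1 and Rbm3 did not. The heat shock element, the site that heat shock factors bind, was searched as GAANNTTC or TTCNNGAA, forms that can overlap when units alternate, on both strands. It occurred in 4946 of 32851 promoters (15.1%), and 3 alternating units in a row occurred in 198 (0.603%). The octamer TCCCCGCC, described for mild cold in the flank of Cirbp, was searched on both strands with its reverse GGCGGGGA and occurred in 1768 promoters (5.38%). A match is a string of letters and says nothing of binding in these livers.

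The 4 sequences below are shown because each pairs with an expression pattern described later: a promoter shared by Hspd1 and Hspe1, near-identical copies for Hspa1a and Hspa1b, and the first of the annotated starts of Hsph1 and of Cirbp. Capitals mark heat shock element matches, except in Cirbp, where they mark the octamer. The coordinates are Hspe1 chr1:55087898-55088197 (plus strand), Hspa1a chr17:34972107-34972406 (minus strand), Hsph1 chr5:149636287-149636586 (minus strand) and Cirbp chr10:80167589-80167888 (plus strand), all on GRCm38.p6.
Hspe1: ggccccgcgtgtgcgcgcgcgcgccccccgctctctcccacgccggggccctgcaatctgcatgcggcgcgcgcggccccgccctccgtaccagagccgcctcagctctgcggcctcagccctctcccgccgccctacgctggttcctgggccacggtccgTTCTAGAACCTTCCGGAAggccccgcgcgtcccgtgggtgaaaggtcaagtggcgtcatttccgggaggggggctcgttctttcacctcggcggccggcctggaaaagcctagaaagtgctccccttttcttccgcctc
Hspa1a: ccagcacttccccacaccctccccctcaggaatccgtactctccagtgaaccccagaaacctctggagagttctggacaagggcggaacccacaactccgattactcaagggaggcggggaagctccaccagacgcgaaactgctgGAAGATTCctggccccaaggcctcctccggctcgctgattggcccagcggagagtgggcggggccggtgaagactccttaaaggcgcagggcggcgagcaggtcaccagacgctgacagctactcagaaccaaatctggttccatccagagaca
Hsph1: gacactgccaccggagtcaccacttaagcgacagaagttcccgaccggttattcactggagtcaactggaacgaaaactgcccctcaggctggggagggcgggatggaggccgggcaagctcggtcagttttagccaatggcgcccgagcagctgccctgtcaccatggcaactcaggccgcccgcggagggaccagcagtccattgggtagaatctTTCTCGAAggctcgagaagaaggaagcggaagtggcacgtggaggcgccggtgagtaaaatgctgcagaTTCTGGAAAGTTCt
Cirbp: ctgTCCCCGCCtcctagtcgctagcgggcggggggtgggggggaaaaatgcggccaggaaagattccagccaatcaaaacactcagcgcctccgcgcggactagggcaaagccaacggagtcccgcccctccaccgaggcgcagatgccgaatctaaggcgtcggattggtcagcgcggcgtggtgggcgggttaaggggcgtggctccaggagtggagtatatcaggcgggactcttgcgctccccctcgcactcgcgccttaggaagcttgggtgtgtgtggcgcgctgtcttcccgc

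Hspe1 lies head to head with Hspd1, and 285 of the 300 bases of its window are also in the window of the second Hspd1 start, on the opposite strand. The run of 4 alternating units at chr1:55088059-55088076 begins 89 bases before the Hspe1 start and serves as letters for both genes. The window of the first Hspd1 start shares 4 bases with that of Hspe1 and holds no match. The windows of Hspa1a and Hspa1b were identical at 296 of 300 positions (98.7%), each with 1 heat shock element 104 bases before the start. Hsph1 had 1 match 33 bases before its first start and an overlapping pair 37 and 42 bases after it. Cirbp had the octamer 247 bases before its first start and no heat shock element, and the 2 Dnajb1 windows held no heat shock element either. The octamer was not particular to Cirbp: it also lay 137 bases before the start in both Hspa1a and Hspa1b (as GGCGGGGA, left in lower case above) and 35 bases after the second Dnajb1 start, and the second Cirbp window held none.

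Library totals ran between 44416597 and 82615862 counts, with 0.0363 to 0.192% mitochondrial counts. Within groups no library was a copy of another, and pairs across groups were not compared. Most counts were even numbers, so a count is not 1 molecule. The rows of the deleted Cyp2b9 held a median of 1.10, 5.83 and 26.3 CPM (counts scaled to a common library size) at 0-, 1- and 10-PFOS over 16 mice per dose. The medians of Cyp2b10 and Cyp2b13, also deleted, were likewise higher at each higher dose. Where the reads in these rows came from was not tested. The 5 hepatocyte markers found were present in every library. At 10-PFOS 3 or 4 of them fell in each sex and genotype, where 36.9 to 48% of all genes were called in either direction. Hspa1a and Hspa1b are near-identical copies, and Rbm3 has a near-identical copy listed as Rbm3-ps, so how reads were split within each pair is uncertain.

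At 10-PFOS the mitochondrial pair Hspd1 and Hspe1, Hsp90aa1 and Rbm3 were higher than at 0-PFOS in both sexes and both genotypes. The mice of these doses did not overlap in any of the 4 comparisons. Hspa8 was higher by less. The share of all genes without overlap was not counted, so nothing is read from non-overlap here or below. Cirbp was called higher in female hCYP2B6-Tg livers and Hsph1 in female Cyp2b-null and male hCYP2B6-Tg livers. Of the inducible pair, Hspa1b was called lower in both male genotypes and Hspa1a in male Cyp2b-null livers. By edgeR's quasi-likelihood test at a Benjamini-Hochberg adjusted p under 0.05, 6 of the 10 genes were called in female hCYP2B6-Tg livers, all higher, where 46.8% of all 13193 genes tested were called. The female Cyp2b-null livers likewise had 6 called, all higher, against 36.9% of all genes. Of 12594 genes tested in males, 48% were called in hCYP2B6-Tg livers, with 6 of the 10 higher and 1 lower, and 44.1% in Cyp2b-null livers, with 5 higher and 2 lower. The contrasts were in view when the genes were selected, so nothing is read from these counts. The median log2 fold change of the 10 genes at 10-PFOS was 0.71 and 0.67 in female hCYP2B6-Tg and Cyp2b-null livers and 0.74 and 0.45 in male hCYP2B6-Tg and Cyp2b-null livers, beside medians over all genes between -0.05 and -0.01.

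**Figure D1:**
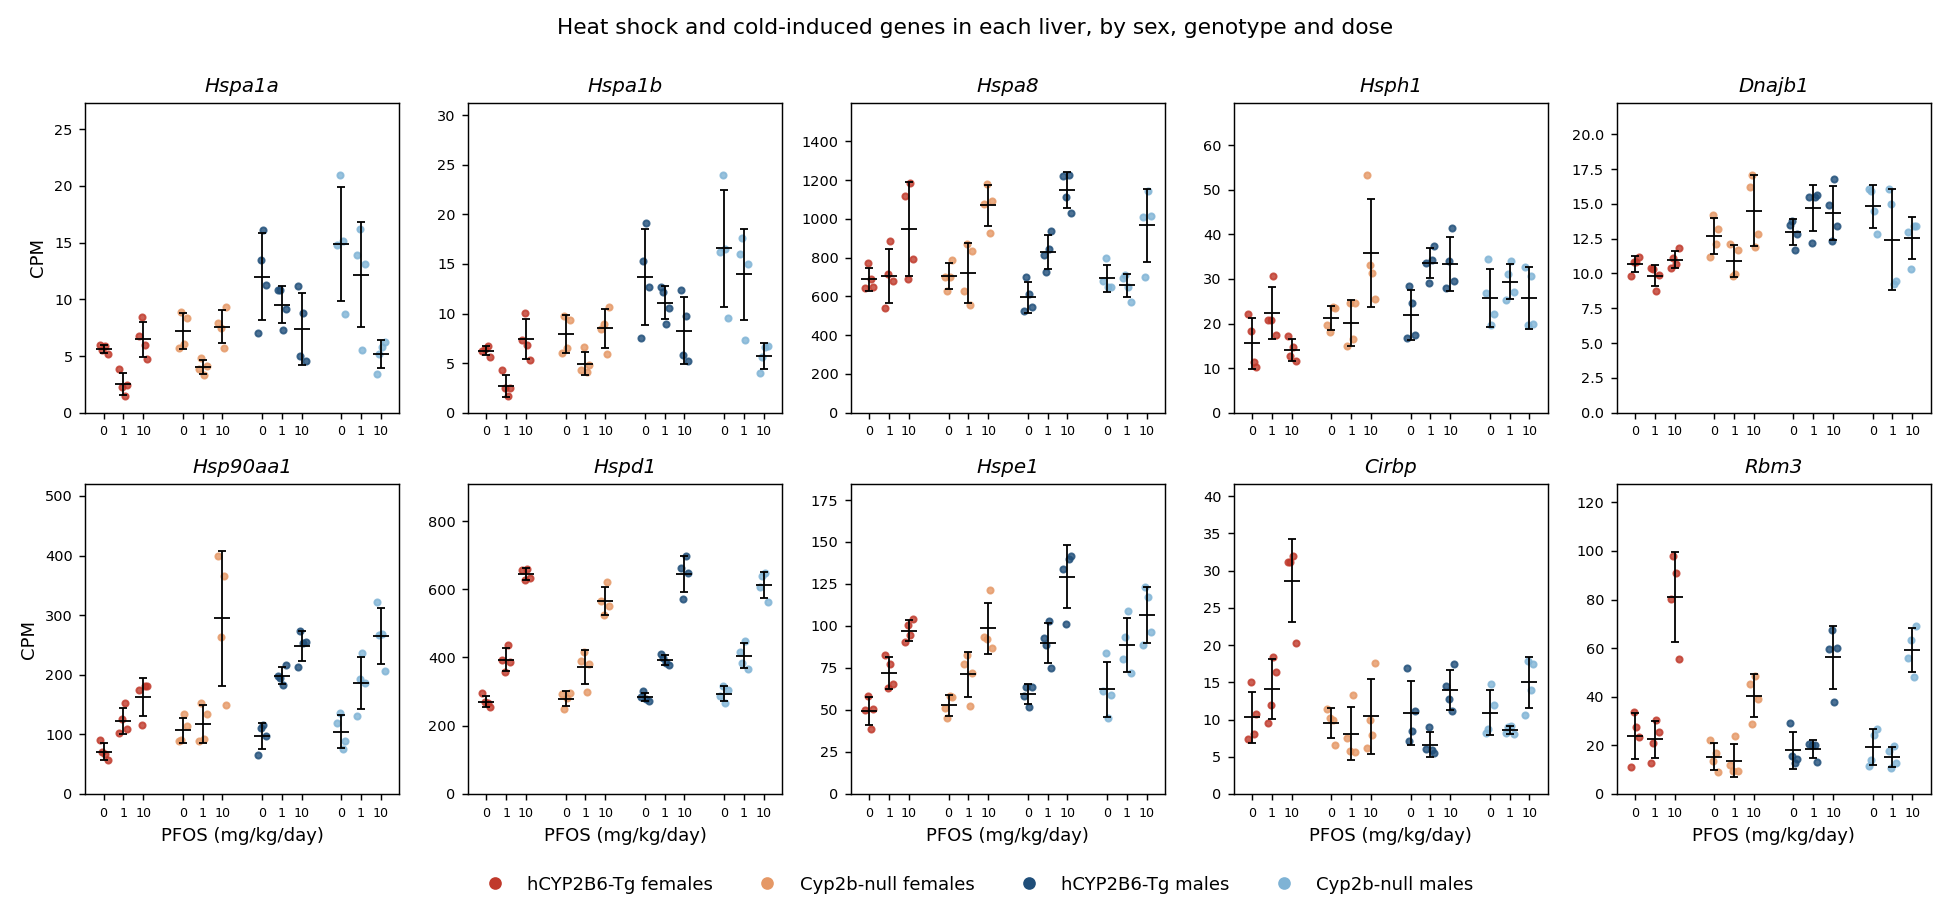
CPM of the 10 genes in each of the 48 livers, at 0-, 1- and 10-PFOS within each sex and genotype, with dots for mice and bars for the mean ± SD of 4. Every 10-PFOS dot of Hspd1 lies at or above 524 CPM and every 0-PFOS dot at or below 318 CPM.

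Hspd1 separated the 3 doses in all 4 combinations of sex and genotype. In female hCYP2B6-Tg livers it measured 295, 268, 266 and 254 CPM at 0-PFOS, 393, 357, 437 and 388 CPM at 1-PFOS, and 656, 626, 660.3 and 633 CPM at 10-PFOS. In female Cyp2b-null livers it measured 293, 248, 281 and 296 CPM at 0-PFOS, 390.0, 416, 300.1 and 382 CPM at 1-PFOS, and 567, 524, 620.2 and 552 CPM at 10-PFOS. The lowest Cyp2b-null female at 1-PFOS stood just above the highest at 0-PFOS. In male hCYP2B6-Tg livers it measured 285, 302, 278 and 273 CPM at 0-PFOS, 411, 398, 384 and 378 CPM at 1-PFOS, and 661, 572, 698 and 648 CPM at 10-PFOS. In male Cyp2b-null livers it measured 286, 318, 268 and 304 CPM at 0-PFOS, 417, 384, 449.6 and 368 CPM at 1-PFOS, and 606, 638, 648 and 562 CPM at 10-PFOS. Males showed the same stepwise separation of the doses. The log2 fold change of Hspd1 at 10-PFOS was 1.24 ± 0.10 and 1.01 ± 0.10 (SE) in female hCYP2B6-Tg and Cyp2b-null livers, and 1.15 ± 0.08 and 1.04 ± 0.08 in the matching males. At 1-PFOS it was 0.53 ± 0.10, 0.40 ± 0.10, 0.47 ± 0.08 and 0.46 ± 0.08 in the same order of groups.

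Hspe1, the lid of the Hspd1 chamber, followed its partner. It measured 90.3, 100.4, 94.4 and 104 CPM in female hCYP2B6-Tg livers at 10-PFOS, against 50.1, 58.3, 38.6 and 50.6 CPM at 0-PFOS. In female Cyp2b-null livers the values were 93.3, 92.5, 121 and 87.0 CPM at 10-PFOS, against 50.9, 45.0, 58.2 and 57.5 CPM at 0-PFOS. Every 10-PFOS female was above every 0-PFOS female. Male hCYP2B6-Tg livers held 134, 101, 139.9 and 142 CPM at 10-PFOS, against 58.3, 63.8, 51.6 and 63.9 CPM at 0-PFOS. Male Cyp2b-null livers held 88.8, 123, 117 and 96.6 CPM at 10-PFOS, against 61.1, 84.0, 45.1 and 58.7 CPM at 0-PFOS. The log2 fold changes at 10-PFOS were 0.97 ± 0.15 and 0.89 ± 0.14 in female hCYP2B6-Tg and Cyp2b-null livers and 1.09 ± 0.16 and 0.76 ± 0.16 in male hCYP2B6-Tg and Cyp2b-null livers.

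Hsp90aa1 varied widely among the 10-PFOS females of the Cyp2b-null genotype. Female hCYP2B6-Tg livers held 175, 116, 181 and 182 CPM at 10-PFOS, against 90.2, 69.6, 66.2 and 57.4 CPM at 0-PFOS. Female Cyp2b-null livers held 399.6, 263, 366 and 149 CPM at 10-PFOS, against 88.2, 90.8, 134 and 114 CPM at 0-PFOS. Replicate 4 of the Cyp2b-null 10-PFOS females lay near the 0-PFOS females and the other three well above them. Male hCYP2B6-Tg livers held 213, 273, 253 and 256 CPM at 10-PFOS, against 65.6, 111, 115 and 97.2 CPM at 0-PFOS. Male Cyp2b-null livers held 321, 267, 268 and 206 CPM at 10-PFOS, against 119, 135, 75.2 and 88.4 CPM at 0-PFOS. Log2 fold changes at 10-PFOS were 1.19 ± 0.25 and 1.46 ± 0.25 in female hCYP2B6-Tg and Cyp2b-null livers, and 1.32 ± 0.19 and 1.33 ± 0.19 in male hCYP2B6-Tg and Cyp2b-null livers.

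Hspa8, the constitutive HSP70, stood at 523 to 797 CPM in the 0-PFOS groups. In female hCYP2B6-Tg livers it was at 1119.9, 691, 1185 and 792 CPM at 10-PFOS, against 643, 774, 692 and 649 CPM at 0-PFOS. Replicates 1 and 3 were high and replicates 2 and 4 near the 0-PFOS mice, and the log2 fold change was 0.45 ± 0.17. Without any 1 of 5 libraries (10-PFOS replicate 1 or 3, 0-PFOS replicate 1, 3 or 4) it was 0.32 to 0.45 and no longer called. Hspa8 in female Cyp2b-null livers was at 1077, 1182, 929.6 and 1095 CPM at 10-PFOS, against 702, 631, 699.8 and 791 CPM at 0-PFOS, with no overlap and a log2 fold change of 0.59 ± 0.17. In male hCYP2B6-Tg livers it was at 1222, 1114, 1229 and 1032 CPM at 10-PFOS, against 523, 702, 614 and 544 CPM at 0-PFOS, with a log2 fold change of 0.92 ± 0.13. The male Cyp2b-null log2 fold change was 0.46 ± 0.13, where 10-PFOS replicate 2, at 702 CPM, was within the 0-PFOS range and the other three were above it.

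Hsph1 was called higher at 10-PFOS in 2 of the 4 combinations of sex and genotype. Female hCYP2B6-Tg livers held 17.2, 12.7, 14.8 and 11.5 CPM at 10-PFOS, against 22.2, 18.3, 11.4 and 10.3 CPM at 0-PFOS, with a log2 fold change of -0.16 ± 0.24. Female Cyp2b-null livers held 53.4, 33.2, 31.3 and 25.5 CPM at 10-PFOS, against 19.7, 18.1, 23.6 and 23.5 CPM at 0-PFOS, with no overlap and a log2 fold change of 0.75 ± 0.24. Replicate 1 of these 10-PFOS females was the highest of all 48 livers, and without it the log2 fold change was 0.50 and not called. It was not called without 0-PFOS replicate 2 either (0.69). Male hCYP2B6-Tg livers held 28.0, 34.0, 41.5 and 29.5 CPM at 10-PFOS, against 16.8, 28.4, 24.7 and 17.5 CPM at 0-PFOS, a log2 fold change of 0.57 ± 0.19 that was 0.45 to 0.46 and not called without 0-PFOS replicate 1 or 4 or 10-PFOS replicate 3. In male Cyp2b-null livers it was -0.02 ± 0.19. Dnajb1 ranged over 8.76 to 17.1 CPM in the 48 livers and was called at neither dose in any group, with log2 fold changes at 10-PFOS between -0.26 and 0.19.

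The inducible pair Hspa1a and Hspa1b had low counts in every liver, and its dose values lay apart by sex. Male Cyp2b-null livers held 3.44, 5.17, 5.82 and 6.21 CPM of Hspa1a at 10-PFOS, against 14.8, 21.0, 15.1 and 8.72 CPM at 0-PFOS. Hspa1b in the same livers was at 3.98, 5.59, 6.58 and 6.75 CPM at 10-PFOS, against 16.2, 24.0, 16.5 and 9.54 CPM at 0-PFOS. The doses did not overlap, and the log2 fold change was -1.55 ± 0.33 for Hspa1a and -1.55 ± 0.31 for Hspa1b. In male hCYP2B6-Tg livers Hspa1a was at 11.2, 5.01, 8.81 and 4.58 CPM at 10-PFOS, against 7.03, 13.5, 16.1 and 11.3 CPM at 0-PFOS, which overlap, with log2 fold changes of -0.73 ± 0.32 for Hspa1a and -0.76 ± 0.31 for Hspa1b. Only Hspa1b was called there, and it was not called without 0-PFOS replicate 2, 3 or 4 or 10-PFOS replicate 2 or 4 (-0.81 to -0.55). Hspa1a was called there, conversely, without 0-PFOS replicate 1 (-0.93) or 10-PFOS replicate 1 (-1.0). In females the 10-PFOS log2 fold changes of the pair lay between 0.06 and 0.23, with standard errors of 0.22 to 0.24.

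Of the cold-induced pair, Rbm3 was higher at 10-PFOS in every sex and genotype, and Cirbp was called in female hCYP2B6-Tg livers alone. Rbm3 was at 80.4, 98, 90.8 and 55.6 CPM in female hCYP2B6-Tg livers at 10-PFOS, against 11, 33.6, 27.7 and 23.4 CPM at 0-PFOS. It was at 45.3, 28.8, 48.7 and 38.9 CPM in female Cyp2b-null livers at 10-PFOS, against 22, 13.7, 16.9 and 8.94 CPM at 0-PFOS. The log2 fold changes were 1.75 ± 0.34 and 1.39 ± 0.34, with no overlap. Male hCYP2B6-Tg livers held 59.5, 67.5, 37.7 and 59.9 CPM at 10-PFOS, against 29.1, 15.8, 12.6 and 14.3 CPM at 0-PFOS. Male Cyp2b-null livers held 56.1, 63.2, 48 and 69.0 CPM at 10-PFOS, against 11.7, 14.1, 24.4 and 26.7 CPM at 0-PFOS. The male log2 fold changes were 1.61 ± 0.27 and 1.60 ± 0.27. The row of Rbm3-ps, at 62.9% of the mean level of Rbm3, gave 1.85 ± 0.35, 1.31 ± 0.35, 1.71 ± 0.28 and 1.54 ± 0.28 in female hCYP2B6-Tg, female Cyp2b-null, male hCYP2B6-Tg and male Cyp2b-null livers.

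Cirbp was at 31.1, 31.2, 32.0 and 20.3 CPM in female hCYP2B6-Tg livers at 10-PFOS, against 7.33, 15, 8.12 and 10.7 CPM at 0-PFOS, with no overlap and a log2 fold change of 1.47 ± 0.31. In female Cyp2b-null livers it was at 6.21, 9.88, 7.93 and 17.6 CPM at 10-PFOS, against 11.4, 10.2, 9.91 and 6.60 CPM at 0-PFOS, with a log2 fold change of 0.12 ± 0.30. Only replicate 4 of those 10-PFOS females was above the 0-PFOS range. The log2 fold changes in males were 0.32 ± 0.23 in hCYP2B6-Tg and 0.43 ± 0.23 in Cyp2b-null livers, where the doses overlapped. They were called only without 0-PFOS replicate 1 of the hCYP2B6-Tg males (0.59) or 0-PFOS replicate 3 of the Cyp2b-null males (0.62). Over the 12 groups Cirbp was highest in 10-PFOS hCYP2B6-Tg females (28.6 ± 5.59 CPM, SD, n = 4), followed by 10-PFOS Cyp2b-null males (15 ± 3.37 CPM), and lowest in 1-PFOS hCYP2B6-Tg males (6.63 ± 1.63 CPM). From the second to the sixth lowest, group means lay between 8.09 and 10.4 CPM.

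**Figure D2:**
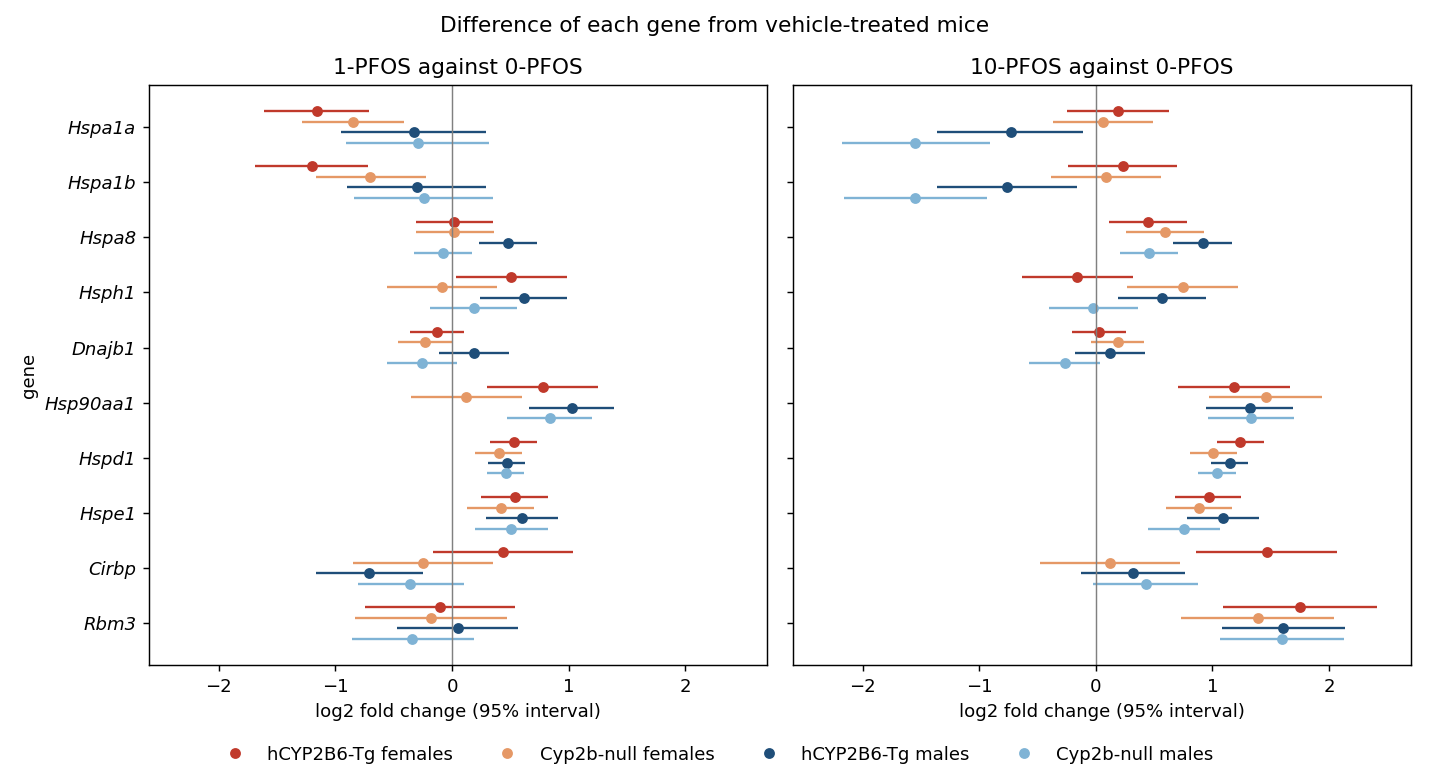
Log2 fold change against 0-PFOS, with its 95% interval, for the 10 genes in each sex and genotype at 1-PFOS (left) and 10-PFOS (right). At 10-PFOS Hspd1, Hspe1, Hsp90aa1 and Rbm3 lie above 0 in all 4 groups, and Hspa1a and Hspa1b at -1.55 in Cyp2b-null males.

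At 1-PFOS Hspd1, Hspe1 and Hsp90aa1 had smaller log2 fold changes than at 10-PFOS in every group, as had Rbm3, which was called in none of them. In female hCYP2B6-Tg livers 4 of the 10 genes were called, 2 in each direction, where 2.27% of all genes were called. In female Cyp2b-null livers edgeR called none (4 at an unadjusted p under 0.05, and 2 by DESeq2), where 0.697% of all genes were called, and Hspd1 was called without 1-PFOS replicate 3 (0.48). Among males 14.7% of all genes were called in hCYP2B6-Tg livers, with 5 of the 10 higher and 1 lower, and 3.62% in Cyp2b-null livers, with 2 higher. The selection of the genes had these contrasts in view too. The called genes were Hspd1 in every group but the Cyp2b-null females, Hspe1 in hCYP2B6-Tg livers of both sexes, Hsp90aa1 in both male genotypes, Hspa8, Hsph1 and Cirbp in male hCYP2B6-Tg livers, and Hspa1a and Hspa1b in female hCYP2B6-Tg livers. Fitted on the compared groups alone, edgeR called 0 of the 10 in female hCYP2B6-Tg and in male Cyp2b-null livers. Only 3 of the 6 calls in male hCYP2B6-Tg livers were left without 0-PFOS replicate 1 or 4 or 1-PFOS replicate 3 or 4, and 1 of the 2 in male Cyp2b-null livers without 1-PFOS replicate 3, where Hsp90aa1 was at 0.70. Hspe1 in female hCYP2B6-Tg livers (0.54 ± 0.14) was 0.43 to 0.55 and not called without 0-PFOS replicate 1, 3 or 4 or 1-PFOS replicate 1 or 3, and in male Cyp2b-null livers (0.51 ± 0.16) it was called only without 0-PFOS replicate 2 (0.67). Rbm3 had log2 fold changes of -0.10, -0.18, 0.05 and -0.34 in female hCYP2B6-Tg, female Cyp2b-null, male hCYP2B6-Tg and male Cyp2b-null livers.

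The inducible pair was lowest of all in 1-PFOS females. Hspa1a was at 3.87, 2.23, 1.49 and 2.49 CPM in female hCYP2B6-Tg livers at 1-PFOS, against 5.98, 5.53, 5.86 and 5.18 CPM at 0-PFOS. In female Cyp2b-null livers it was at 3.85, 4.85, 3.29 and 4.16 CPM at 1-PFOS, against 5.71, 8.85, 6.07 and 8.34 CPM at 0-PFOS. Hspa1a overlapped between these doses in neither genotype, with log2 fold changes of -1.16 ± 0.23 and -0.85 ± 0.22, the second not called. The 10-PFOS females of these genotypes, which were other mice, were at 4.76 to 9.33 CPM of Hspa1a, so the order of the 3 doses was not monotonic. Hspa1b had -1.20 ± 0.25 in hCYP2B6-Tg females. In Cyp2b-null females it had -0.70 ± 0.24, where the doses overlapped and it was not called. Cirbp at 1-PFOS was lower in male hCYP2B6-Tg livers, at 6.01, 9.06, 5.90 and 5.56 CPM against 16.9, 7.14, 8.52 and 11.1 CPM at 0-PFOS. Its log2 fold change of -0.71 ± 0.23 was -0.44 and not called without 0-PFOS replicate 1, the highest of these mice, and was -0.72 to -0.65 and not called without 0-PFOS replicate 4 or 1-PFOS replicate 1, 3 or 4. Hsp90aa1 was called in male Cyp2b-null livers at 131, 192, 237 and 187 CPM at 1-PFOS, against 119, 135, 75.2 and 88.4 CPM at 0-PFOS, which overlap.

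In females at 10-PFOS, hCYP2B6-Tg livers held more Cirbp and less Hsph1 than Cyp2b-null livers did. These values were in view when the genes were chosen. Cirbp was at 31.1, 31.2, 32.0 and 20.3 CPM in hCYP2B6-Tg females, against 6.21, 9.88, 7.93 and 17.6 CPM in Cyp2b-null females, a log2 fold change of 1.46 ± 0.31. Hsph1 was at 17.2, 12.7, 14.8 and 11.5 CPM in hCYP2B6-Tg females, against 53.4, 33.2, 31.3 and 25.5 CPM in Cyp2b-null females, a log2 fold change of -1.35 ± 0.25. Neither gene overlapped between the genotypes. Both were called, where 3.59% of all genes were called, and neither was when only these 2 groups were fitted. Cirbp was not called without Cyp2b-null replicate 1 or 3 or hCYP2B6-Tg replicate 2 (1.27 to 1.41), nor Hsph1 without Cyp2b-null replicate 1 (-1.10) or hCYP2B6-Tg replicate 2 (-1.31). Dnajb1 was at 10.4, 11.1, 10.7 and 11.8 CPM in hCYP2B6-Tg females, against 16.2, 17.1, 11.9 and 12.8 CPM in Cyp2b-null females, which do not overlap, with a log2 fold change of -0.40 ± 0.12. Hsp90aa1 had -0.85 ± 0.24 and Rbm3 1.00 ± 0.33, and none of these 3 was called. Without Cyp2b-null replicate 4, Hsp90aa1 had -1.08 and Dnajb1 -0.46, both called, and Dnajb1 was called without hCYP2B6-Tg replicate 4 (-0.43). Hspd1 was higher by 0.18 ± 0.10, although its genotypes did not overlap.

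The genotypes were also set side by side at the other doses, again with the values of the 10 genes known. At 0-PFOS females edgeR called none of the 10, nor any of all genes (0%), with 2 of the 10 and 676 of all genes at an unadjusted p under 0.05 and 0 and 6 called by DESeq2. At 1-PFOS females it again called none of the 10 and 0% of all genes, with 4 and 826 at an unadjusted p under 0.05 and 0 and 11 by DESeq2. Hspa1b had -0.85 ± 0.25 there, and Cirbp 0.80 ± 0.31 (interval 0.20 to 1.40). In males, none of the 10 was called at 0-PFOS (0% of all genes), 1-PFOS (0.889%) or 10-PFOS (0.0556%), with 0, 1 and 0 of the 10 at an unadjusted p under 0.05 and 0 by DESeq2 at each dose. Over all genes at 0-PFOS in males, 861 were at an unadjusted p under 0.05 and DESeq2 called 22. At 10-PFOS the male difference was -0.12 for Cirbp (interval -0.57 to 0.33) and 0.36 for Hsph1 (interval -0.02 to 0.73). Whether the genotype difference itself differed between the sexes was not tested. Hspa8 in males at 1-PFOS was at 815, 727, 845 and 939 CPM in hCYP2B6-Tg livers, against 693, 712, 648 and 574 CPM in Cyp2b-null livers, which do not overlap, with a log2 fold change of 0.35 ± 0.13 that was not called.

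The difference between the genotypes' dose responses was fitted as an interaction, which shares the dose values by which the genes were chosen. In females at 10-PFOS it was 1.34 ± 0.43 for Cirbp and -0.90 ± 0.34 for Hsph1. None of the 10 and 0% of all genes passed, with 2 and 1357 at an unadjusted p under 0.05 and 0 and 40 by DESeq2. In females at 1-PFOS none of the 10 and 0% of all genes passed, with 0 and 524 at an unadjusted p under 0.05 and 0 by DESeq2 in both counts. In males none of the 10 passed at 10-PFOS (0% of all genes; 2 and 1066 at an unadjusted p under 0.05, and 0 and 17 by DESeq2) or at 1-PFOS (0.0556% of all genes; 1 of the 10 unadjusted, 0 by DESeq2). The difference in response of Cirbp and Hsph1 between genotypes was not called by edgeR across all genes, although each was called in the genotype comparison at 10-PFOS itself.

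At 0-PFOS, Hspa1a and Hspa1b were lower in females than in males. These are the baselines of the dose responses by which the genes were chosen, so the difference is a description. Hspa1a was at 5.98, 5.53, 5.86 and 5.18 CPM in hCYP2B6-Tg females, against 7.03, 13.5, 16.1 and 11.3 CPM in hCYP2B6-Tg males. Hspa1b was at 6.23, 6.46, 6.77 and 5.62 CPM in hCYP2B6-Tg females, against 7.58, 15.3, 19.1 and 12.7 CPM in hCYP2B6-Tg males. No female overlapped a male, and the log2 fold changes were -1.09 ± 0.29 for Hspa1a and -1.13 ± 0.29 for Hspa1b. They were the 2 of the 10 genes called there, where 21.8% of all 13271 genes tested were called. Hsph1 had -0.50 ± 0.23 and was called only without hCYP2B6-Tg female replicate 1 (-0.74). Of the endoplasmic reticulum chaperones described further on, 8 of 13 were called there, all lower in females, with Creld2 at -1.13 ± 0.26 (adjusted p = 0.0013) and Hyou1 at -1.0 ± 0.22 (adjusted p = 0.0012). Of 12 clock genes that peak by day 4 were higher in these females, and their part was not tested.

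In Cyp2b-null livers at 0-PFOS the same pair was called and no other of the 10, where 12.8% of all genes were called. Hspa1a was at 5.71, 8.85, 6.07 and 8.34 CPM in females, against 14.8, 21.0, 15.1 and 8.72 CPM in males, with -1.04 ± 0.29. Hspa1b was at 6.05, 9.77, 6.50 and 9.39 CPM in females, against 16.2, 24.0, 16.5 and 9.54 CPM in males, with -1.06 ± 0.29. Male replicate 4 lay within the female range and male replicate 2 was the highest. Without male replicate 2 the log2 fold changes were -0.84 and -0.83, and neither was called.

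At 10-PFOS neither gene of this pair was called between the sexes in either genotype. In Cyp2b-null livers edgeR called none of the 10 (1 at an unadjusted p under 0.05, 0 by DESeq2), where 0.942% of all genes were called, with 0.56 ± 0.29 for Hspa1a (interval -0.01 to 1.12). The difference between the sexes' 10-PFOS responses in Cyp2b-null livers was 1.60 ± 0.41 for Hspa1a and 1.63 ± 0.41 for Hspa1b, both called, where 0.949% of all genes were called. This interaction reuses the dose values known when the genes were selected. Leaving out any 1 of 11 of the 16 libraries ended the call of Hspa1a, and any 1 of 9 of the 16 that of Hspa1b. They were female 0-PFOS replicates 1 and 3, female 10-PFOS replicates 1, 2 and 4, male 0-PFOS replicates 1 and 2 and male 10-PFOS replicates 1 and 2 for both genes, with male 0-PFOS replicate 3 and male 10-PFOS replicate 3 for Hspa1a. The values then ran over 1.40 to 1.66.

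In hCYP2B6-Tg livers at 10-PFOS, females had less Hsph1 and more Cirbp than males, again on values in view when the genes were chosen. Hsph1 was at 17.2, 12.7, 14.8 and 11.5 CPM in females, against 28.0, 34.0, 41.5 and 29.5 CPM in males, a log2 fold change of -1.24 ± 0.23. Cirbp was at 31.1, 31.2, 32.0 and 20.3 CPM in females, against 14.5, 12.8, 11.1 and 17.5 CPM in males, a log2 fold change of 1.04 ± 0.28. Neither overlapped, and they were the 2 of the 10 called, where 7.47% of all genes were called. Cirbp was not called without female replicate 1, 2 or 3 or male replicate 2 or 3 (0.94 to 1.00). The sex difference in the 10-PFOS response of hCYP2B6-Tg mice was 1.12 ± 0.40 for Cirbp. None of the 10 was called for it, where 6.5% of all genes were called, with 5 of the 10 at an unadjusted p under 0.05 and 1 called by DESeq2. Cirbp was called without female 0-PFOS replicate 2 (1.36) or female 10-PFOS replicate 4 (1.26).

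Genes of the same machines were read from lists chosen with earlier results of these data known, none of which holds any of the 10. Of all genes, 46.8%, 36.9%, 48% and 44.1% were called at 10-PFOS in female hCYP2B6-Tg, female Cyp2b-null, male hCYP2B6-Tg and male Cyp2b-null livers, and each list's count stands against that share. All 8 subunits of the cytosolic chaperonin CCT, which folds actin and tubulin, were called and higher at 10-PFOS in both female genotypes, and 7 of 8 in both male genotypes, the exception being Cct8. Their median log2 fold changes were 0.61, 0.61, 0.76 and 0.63 in female hCYP2B6-Tg, female Cyp2b-null, male hCYP2B6-Tg and male Cyp2b-null livers. Cct3 rose the most, by 1.23 ± 0.11 (adjusted p = 1.0e-08) and 0.95 ± 0.11 (5.1e-07) in female hCYP2B6-Tg and Cyp2b-null livers and by 0.99 ± 0.08 (3.3e-10) and 1.05 ± 0.08 (1.5e-10) in male hCYP2B6-Tg and Cyp2b-null livers. Cct8 in female Cyp2b-null livers (0.24) was not called without 10-PFOS replicate 1 or 3 or 0-PFOS replicate 1, 2 or 4.

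Of all genes 36.9 to 48% were called in these comparisons. The mitochondrial list of 12, around Hspd1 and Hspe1, held 8 that rose and 1 that fell in female hCYP2B6-Tg livers, and likewise in female Cyp2b-null and male hCYP2B6-Tg livers, and 9 and 2 in male Cyp2b-null livers. Lonp1, a matrix protease, rose by 1.45 ± 0.11 (adjusted p = 9.9e-10) and 1.23 ± 0.11 (1.4e-08) in female hCYP2B6-Tg and Cyp2b-null livers and by 1.28 ± 0.10 (3.6e-10) and 1.20 ± 0.10 (1.2e-09) in the males. Hspa9, the mitochondrial HSP70, rose by 1.21, 1.09, 1.00 and 0.99 in the same order, and Afg3l2, an inner membrane protease, by 1.02, 0.80, 0.77 and 0.80. Clpx, the unfoldase of the ClpXP protease, fell by 1.08 in male hCYP2B6-Tg livers (adjusted p = 6.4e-06), and Grpel2, a nucleotide exchange factor, fell by 0.70 in female hCYP2B6-Tg livers (adjusted p = 1.8e-04).

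Of the 22 other cytosolic heat shock and co-chaperone genes, 9 rose and 2 fell in female hCYP2B6-Tg livers, 11 and 1 in female Cyp2b-null, 10 and 1 in male hCYP2B6-Tg and 9 and 2 in male Cyp2b-null livers. With 11, 12, 11 and 11 of 22 called, beside 46.8%, 36.9%, 48% and 44.1% of all genes, the number called was near the background in the hCYP2B6-Tg livers and the Cyp2b-null males, so it is no result about this list. In the male Cyp2b-null comparison 7 were called, not 11, without 0-PFOS replicate 4 or 10-PFOS replicate 3. Hsp90ab1, the constitutive HSP90, rose by 0.63 ± 0.13 (adjusted p = 4.0e-04) in female hCYP2B6-Tg, 0.81 ± 0.10 (3.4e-07) in male hCYP2B6-Tg and 0.72 ± 0.10 (2.5e-06) in male Cyp2b-null livers. Hspa4l, an HSP110 relative, rose by 0.79 in female Cyp2b-null, 0.64 in male hCYP2B6-Tg and 0.70 in male Cyp2b-null livers, and Chordc1, an HSP90 co-chaperone, by 0.80 in female Cyp2b-null livers. Small heat shock proteins were split: Hspb1 rose by 1.22 ± 0.38 (adjusted p = 0.013) and Cryab fell by 0.81 ± 0.25 (adjusted p = 0.014) in female Cyp2b-null livers, the call of Cryab being lost without 10-PFOS replicate 1 (-0.64, adjusted p = 0.061). Chosen after its values were seen, Hsf1 itself was called lower in female hCYP2B6-Tg livers (-0.48 ± 0.15, adjusted p = 0.013) and not called in the other three.

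Chaperones of the endoplasmic reticulum, a separate compartment, had negative medians. Of 13, 0 rose and 4 fell in female hCYP2B6-Tg, 1 and 3 in female Cyp2b-null, 1 and 7 in male hCYP2B6-Tg and 1 and 5 in male Cyp2b-null livers, with medians of -0.19, -0.20, -0.36 and -0.30. The 4, 4, 8 and 6 called compare with 46.8%, 36.9%, 48% and 44.1% of all genes, so the females' counts were at or below the background. Sdf2l1, a partner of the reticulum's HSP70, fell by 2.06 ± 0.37 (adjusted p = 1.0e-04), 1.74 ± 0.36 (5.0e-04), 2.51 ± 0.27 (6.7e-08) and 1.92 ± 0.27 (3.9e-06) in the same order. Pdia6, a disulfide isomerase, fell by 0.89, 0.81, 0.89 and 0.70. Dnajb9, a stress-induced HSP40, was the 1 riser in female Cyp2b-null (1.01), male hCYP2B6-Tg (0.86) and male Cyp2b-null (0.86) livers. In the list of splicing factors 1 to 4 of 12 tested rose and 1 or 2 fell. Among immediate-early genes, which handling and stress can switch on within minutes, 3 of the 7 tested in females and of the 6 tested in males fell in every group, beside 36.9 to 48% of all genes called in either direction, with Ier2 and Dusp1 in all of them, and 0 to 2 rose, with Atf3 higher by 2.52 in female Cyp2b-null, 2.79 in male hCYP2B6-Tg and 3.19 in male Cyp2b-null livers.

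**Figure D3:**
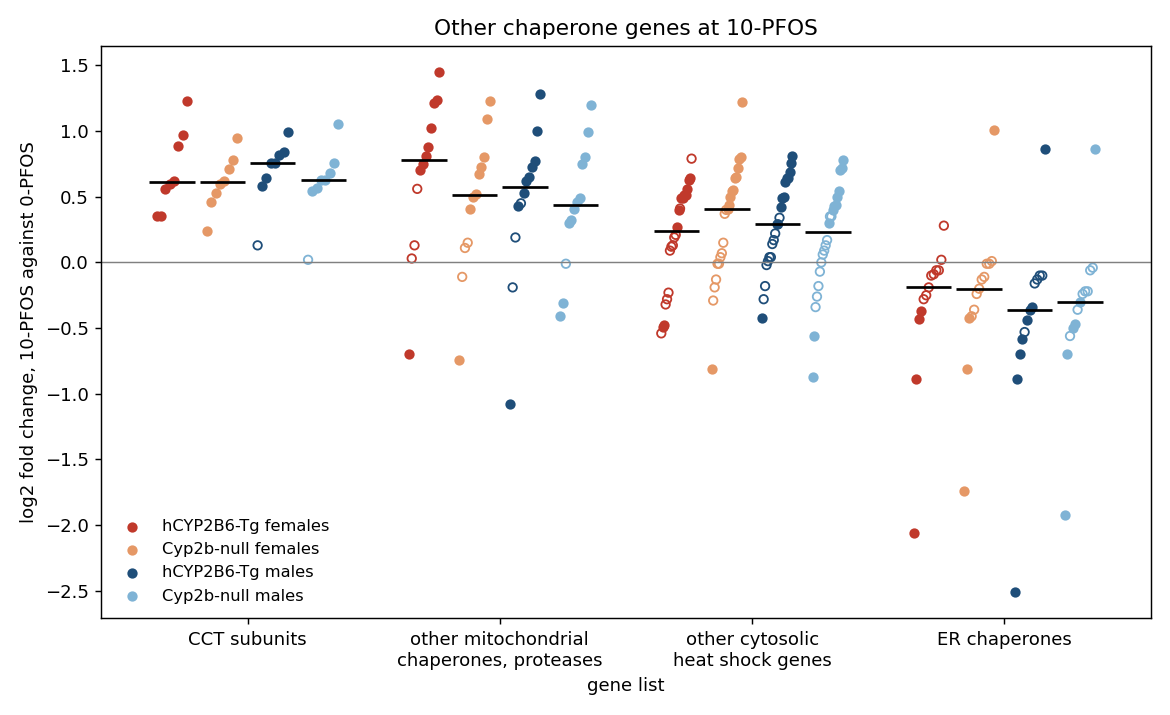
Log2 fold change at 10-PFOS against 0-PFOS of each gene of the cytosolic, CCT, mitochondrial and endoplasmic reticulum lists in the 4 combinations of sex and genotype. Filled dots passed an adjusted p of 0.05 and lines are list medians, which lie above 0 except for the endoplasmic reticulum list (-0.19 to -0.36).

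At 1-PFOS, 2.27%, 0.697%, 14.7% and 3.62% of all genes were called in female hCYP2B6-Tg, female Cyp2b-null, male hCYP2B6-Tg and male Cyp2b-null livers. The CCT list of 8 had 2 called in female hCYP2B6-Tg, 0 in female Cyp2b-null, 4 in male hCYP2B6-Tg and 1 in male Cyp2b-null livers, all higher, the cytosolic list of 22 had 0, 0, 5 and 1, and the mitochondrial list of 12 had 3, 0, 2 and 0. Where edgeR called none, the genes at an unadjusted p under 0.05 were 1 CCT, 2 cytosolic and 2 mitochondrial in female Cyp2b-null, 5 cytosolic in female hCYP2B6-Tg and 1 mitochondrial in male Cyp2b-null livers. The endoplasmic reticulum list had 0 called by edgeR in all of them, with 0, 5, 1 and 0 of its genes at an unadjusted p under 0.05. In the female 10-PFOS genotype comparison, where 3.59% of all genes were called, 3 of 22 cytosolic genes were called, all lower in hCYP2B6-Tg livers: Hspa4l (-0.96 ± 0.21, adjusted p = 0.018), Ahsa2 (-0.89 ± 0.18, adjusted p = 0.016) and Chordc1 (-0.75 ± 0.19, adjusted p = 0.029), where the list's median was -0.33. Each lost its call without Cyp2b-null replicate 1 or 3, at values of -0.85 to -0.61. Hspa4l and Chordc1 also lost it without hCYP2B6-Tg replicate 1, 2 or 3, and Chordc1 without Cyp2b-null replicate 2. Of the mitochondrial list 1 was higher, Dnaja3 (0.42 ± 0.09, adjusted p = 0.016), and 1 lower, Grpel2 (-0.55 ± 0.13, adjusted p = 0.026), calls lost without Cyp2b-null replicate 1 or 3 or hCYP2B6-Tg replicate 2 and, for Grpel2, also without Cyp2b-null replicate 2 or hCYP2B6-Tg replicate 1 or 3. No CCT or endoplasmic reticulum gene was called there by edgeR, with 0 and 6 at an unadjusted p under 0.05.

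Other gene sets were read in the same livers. Of 12 clock genes that peak by day, 7 rose at 10-PFOS in female Cyp2b-null livers, where 36.9% of all genes were called. In male hCYP2B6-Tg livers 6 rose (48% of all genes called), in male Cyp2b-null livers 6 (44.1%) and in female hCYP2B6-Tg livers 0 (46.8%). These shares count both directions. Genes called higher numbered 2522 and 2945 of 13193 in female Cyp2b-null and hCYP2B6-Tg livers. In male hCYP2B6-Tg and Cyp2b-null livers they numbered 3038 and 2828 of 12594. The list was chosen with earlier results of these data known, so nothing is read from its counts. At 1-PFOS 6 rose in male hCYP2B6-Tg livers, where 14.7% of all genes were called in either direction and 1098 of 12594 were called higher. The difference of the day and dawn clock lists, an index on the log2 scale, averaged 2.05 ± 0.55 in female hCYP2B6-Tg livers at 10-PFOS, against 1.35 ± 1.77 at 0-PFOS, and 1.28 ± 0.65 in female Cyp2b-null livers at 10-PFOS, against -1.51 ± 0.55 at 0-PFOS (SD, n = 4). It averaged 2.95 ± 0.38 in male hCYP2B6-Tg livers at 10-PFOS, against -0.39 ± 0.57 at 0-PFOS, and 1.87 ± 0.60 in male Cyp2b-null livers at 10-PFOS, against -1.24 ± 0.69 at 0-PFOS. The sources used here do not state the time of day of collection. Within groups the index was not shown to follow the genes. For Rbm3 over 48 mice, Pearson's r was 0.26 (permutation p = 0.19, adjusted p = 0.34) and Spearman's rho 0.16 (permutation p = 0.37, adjusted p = 0.47), and r was 0.12 without the 2 mice farthest out. For Hsph1 r was -0.27 (permutation p = 0.16, adjusted p = 0.34) and rho -0.25 (permutation p = 0.17, adjusted p = 0.47), and r was -0.15 without the 2 farthest mice. Cirbp had r of 0.19 and Hspa8 of 0.14, and none of these 4 relations, all tested on deviations from group means, passed.

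All 6 Kupffer cell markers fell at 10-PFOS in both female genotypes, 2 in male hCYP2B6-Tg and 3 in male Cyp2b-null livers. Of all genes 36.9 to 48% were called at 10-PFOS in either direction. Genes called lower numbered 3230 and 2345 of 13193 in female hCYP2B6-Tg and Cyp2b-null livers. In male hCYP2B6-Tg and Cyp2b-null livers they numbered 3011 and 2726 of 12594. With only 6 markers, nothing is read from the male counts. The summed level of the Kupffer markers was 103.3 to 164.9 CPM at 10-PFOS against 237.2 to 343.4 CPM at 0-PFOS in female hCYP2B6-Tg livers, and 83.2 to 135.4 CPM against 243.5 to 299.5 CPM in female Cyp2b-null livers. It was 74.2 to 98 CPM at 10-PFOS against 113.3 to 170.0 CPM at 0-PFOS in male hCYP2B6-Tg livers, and 65.7 to 85.4 CPM against 78.0 to 156.1 CPM in male Cyp2b-null livers. A lower sum was not particular to Kupffer markers. The hepatocyte sum was 28172.4 to 38035.3 CPM at 10-PFOS against 63699.6 to 89945.0 CPM at 0-PFOS in female hCYP2B6-Tg livers. It was lower without overlap in every other sex and genotype too. In both female genotypes the stellate cell sum was lower and the bile duct sum higher at 10-PFOS, without overlap. At 0-PFOS all 6 were higher in females than in males of both genotypes, the comparison in which Hspa1a and Hspa1b were lower in females. Of all genes 21.8% were called there in hCYP2B6-Tg and 12.8% in Cyp2b-null livers. The summed sinusoidal endothelial and stellate cell markers were also higher in 0-PFOS females than males of both genotypes, without overlap. Of 3 erythroid markers, 2 fell in each female genotype and 3 in each male genotype, beside the same 36.9 to 48% of all genes called in either direction at 10-PFOS. No hepatocyte, Kupffer or erythroid marker was at 0 in all mice of a group. The part of the clock, of Kupffer and other cell types and of blood in the values of the 10 genes was not tested.

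Among mice of the same group the genes varied together in blocks. Over 48 livers, as deviations of log2 CPM from group means, Pearson's r was 0.99 for Hspa1a with Hspa1b, which share most of their sequence, 0.71 for Hspd1 with Hspe1, which share a promoter region, 0.75 for Hsph1 with Hsp90aa1 and 0.67 for Cirbp with Rbm3. Each pair of a cold and a heat shock gene had a negative r, many of them weak, from -0.17 for Hspa8 with Rbm3 to -0.61 for Hsp90aa1 with Cirbp. Among the strongest were -0.50 for Hsph1 with Cirbp and -0.50 for Hspa1a with Rbm3. These correlations are descriptions over libraries that also share their composition, and no test was made of them.

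**Figure D4:**
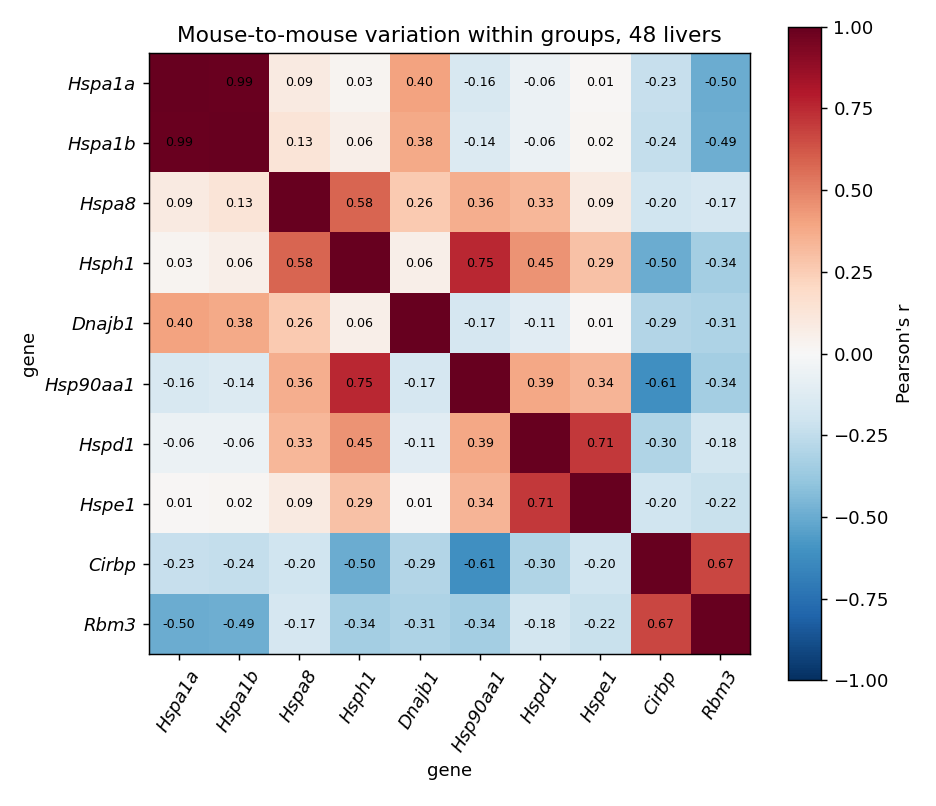
Pearson's r between the 10 genes over 48 livers, from log2 CPM as deviations from group means. The pairs Hspa1a with Hspa1b (0.99), Hsph1 with Hsp90aa1 (0.75), Hspd1 with Hspe1 (0.71) and Cirbp with Rbm3 (0.67) are positive, and Cirbp with Hsp90aa1 is at -0.61.

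Likeness to all genes was ranked for Hsph1 and Cirbp by the same r among 6922 genes that averaged 10 CPM or more. The 6 genes most like Hsph1 were Chordc1 (0.81), Hsp90ab1 (0.75), Hsp90aa1 (0.75), Psmc2 (0.72), Hyou1 (0.72) and Iars (0.71). Those most opposite to it were Cblc (-0.67), Dnajc7 (-0.66) and Ldb1 (-0.62). The 6 most like Cirbp were Hoga1 (0.73), Sds (0.69), Rbm3-ps (0.69), Slc37a4 (0.68), Stard5 (0.67) and Rbm3 (0.67), and among the most opposite were Ulk2 (-0.74) and Ern1 (-0.73). Chordc1 and Hsp90ab1 are partners in the HSP90 cycle, Sds breaks down serine and Slc37a4 moves glucose 6-phosphate into the endoplasmic reticulum.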

How the data were processed

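Counts per gene, 1 table per sex, were made by the authors from polyA-selected paired-end reads: FastQC, Trim Galore, alignment to GRCm39 with RSEM and counting with featureCounts, per the submitters' notes and the study's methods (versions and strand setting are not given in the sources). The deposited counts are raw. Each table held 40872 rows, of which 25 broken across lines were left out (0.0432% of female and 0.0281% of male counts). Of 170 deposited files 2 were read; 64 columns of per-sample values in other files and the authors' tables of fold changes and p-values were not used. Library totals were 44416597 to 82615862 counts, and 91.1 to 91.2% of counts above 0 were even.

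The 10 genes, the gene lists and the tests were chosen with earlier results of these data known. Groups followed the labels. One model per sex (24 libraries, 6 groups) and 1 of all 48 libraries for the sex comparisons were fitted with edgeR 4.0.16 in R 4.3.3, limma 3.58.1 (quasi-likelihood, TMM, genes above 1 CPM in at least 3 of 4 mice of a group), with Benjamini-Hochberg adjustment over all genes tested. Called means an adjusted p under 0.05, SE is the absolute log2 fold change over the root of F, and intervals are 95%. CPM used TMM library sizes over 48 libraries. The fit was tested on simulated data. All 10 genes are named in each comparison in which they are counted, and of each other list up to 4 of the called genes with the largest change, and the 6 genes most like and 3 most opposite to Hsph1 and Cirbp, of which 1 is not reported here. Correlations used log2 CPM with a prior count of 2, with 100000 permutations within groups for the clock index (Python 3.11.15, numpy 2.4.6, scipy 1.17.1, pandas 2.3.3, matplotlib 3.10.9). Alternatives were DESeq2 size factors, no filter, a replicate block, DESeq2 1.42.0, only the groups compared, and leaving out each library.

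Deviations of same-numbered mice were most correlated in the comparison of hCYP2B6-Tg with Cyp2b-null females at 1-PFOS (r of 0.23 to 0.48). Between male genotypes at 1-PFOS r was 0.07 to 0.26. No label says what a number shares, and whether the numbers pair mice was not tested. With the replicate block 0 of the 10 genes were called between female genotypes at 1-PFOS, as without it.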

Additional observations from a re-analysis of the deposited data

Results flagged for a closer look

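Of 120 sets of 4 mice (10 genes in 12 groups), 6 held a mouse far from the other 3 by Dixon's criterion, about the 1 in 20 that chance gives. Dnajb1 was at 12.2 CPM in male hCYP2B6-Tg 1-PFOS replicate 2, against 15.5 to 15.6 CPM in the other mice. Dnajb1 was also low in male Cyp2b-null 10-PFOS replicate 2, at 10.3 CPM against 13.0 to 13.4 CPM. Hsp90aa1 was at 115.8 CPM in female hCYP2B6-Tg 10-PFOS replicate 2, against 174.8 to 181.6 CPM. Cirbp was at 20.3 CPM in female hCYP2B6-Tg 10-PFOS replicate 4, against 31.1 to 32.0 CPM, and at 9.06 CPM in male hCYP2B6-Tg 1-PFOS replicate 2, against 5.56 to 6.01 CPM. Rbm3 was at 13.2 CPM in male hCYP2B6-Tg 1-PFOS replicate 4, against 20.1 to 20.5 CPM.

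The response to 10-PFOS differed between female and male Cyp2b-null livers by 1.60 on the log2 scale for Hspa1a and 1.63 for Hspa1b, both called by the interaction in edgeR. The copies are near-identical, so how reads were split between them is uncertain, and the dose values were in view when the genes were chosen, so this is a description.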

How the results depend on the processing

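Of 1680 log2 fold changes of the 10 genes recomputed under alternatives, 1628 kept their side of the threshold, 33 lost a call and 19 gained one. Leaving out libraries entered these counts only by the refits with the lowest and the highest log2 fold change, not by every refit. Direction was compared only where a value was called in either fit, and none of those reversed. With the replicate block, 1 of the 10 genes instead of 0 was called in female Cyp2b-null livers at 1-PFOS (Hspa1a, at a log2 fold change of -0.86). The block also ended the calls of Hspa1b in male hCYP2B6-Tg livers at 10-PFOS (-0.76), Hspe1 in female hCYP2B6-Tg livers at 1-PFOS (0.54) and Cirbp in male hCYP2B6-Tg livers at 1-PFOS (-0.71), and it changed no other call of the 10. DESeq2 called 2 instead of 0 in female Cyp2b-null livers at 1-PFOS, 4 instead of 2 between female genotypes at 10-PFOS, and 1 instead of 0 for sex by 10-PFOS in hCYP2B6-Tg livers. With only the compared groups fitted, 0 were called in female hCYP2B6-Tg (4 with all groups) and male Cyp2b-null livers (2) at 1-PFOS and 0 between female genotypes at 10-PFOS (2).

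Leaving out 1 library at a time, the genes called ran over 0 to 1 in female Cyp2b-null, 1 to 3 in male Cyp2b-null and 3 to 6 in male hCYP2B6-Tg livers at 1-PFOS, 0 to 4 between female genotypes at 10-PFOS, 0 to 2 between the sexes in Cyp2b-null livers at 0-PFOS, and 1 to 2 in hCYP2B6-Tg livers at 10-PFOS. For sex by 10-PFOS they ran over 0 to 2 in Cyp2b-null and 0 to 1 in hCYP2B6-Tg livers, and the cytosolic chaperones called in male Cyp2b-null livers at 10-PFOS over 7 to 12. The cause of these changes was not tested. With 4 mice a group, small differences may have gone uncalled, and the smallest detectable difference was not computed.

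Over all genes, counts of calls that moved by more than 1.5 times are given with the count of the reported fit after them. Without the filter on low counts, edgeR called 9 genes (0) between male genotypes at 0-PFOS and 19 (7) at 10-PFOS, 9 (0) for male genotype by 10-PFOS, 30 (7) for male genotype by 1-PFOS and 650 (992) between the sexes in hCYP2B6-Tg livers at 10-PFOS. With the replicate block it called 143 (92) in female Cyp2b-null livers at 1-PFOS, 3 (7) between male genotypes at 10-PFOS and 4 (7) for male genotype by 1-PFOS. Fitted on the compared groups alone, it called 83 (300) in female hCYP2B6-Tg and 109 (456) in male Cyp2b-null livers at 1-PFOS, 4 (473) between female genotypes at 10-PFOS, 30 (112) and 20 (7) between male genotypes at 1-PFOS and 10-PFOS, 1 (7) for male genotype by 1-PFOS and 58 (125) between the sexes in Cyp2b-null livers at 10-PFOS. At 1-PFOS, DESeq2 called 248 (92) in female Cyp2b-null, 608 (300) in female hCYP2B6-Tg and 731 (456) in male Cyp2b-null livers. Between genotypes it called 6 (0), 11 (0) and 773 (473) in females and 22 (0), 226 (112) and 44 (7) in males at 0-, 1- and 10-PFOS. For genotype by 10-PFOS it called 40 (0) in females and 17 (0) in males, for male genotype by 1-PFOS 66 (7), and in Cyp2b-null livers 188 (125) between the sexes at 10-PFOS and 212 (126) for sex by 10-PFOS. The fit with DESeq2 size factors moved none of these counts by as much.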
